A study of Mus musculus with 6 samples.

Results

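Transcription factors of the MAF and SIX-type families, and the EYA cofactors of the latter, are described here by 8 genes, Maf, Mafa, Mafg, Six2, Six4, Eya1, Eya3 and Eya4. They were chosen by name, with earlier results of these data known, from the 52550 mouse genes of the deposited table. All 8 were found in it. Shares of all genes given beside counts of members are for that reason no test of the group. Per the labels, quadriceps muscle was collected from male mice 13 weeks old, 3 carrying FLExDUX4 and 3 wild-type (WT). The FLExDUX4 allele is a human DUX4 transgene, inverted between lox sites at Rosa26, which is transcribed at a low, leaky level without Cre. The controls carry no transgene, and the transcript of the transgene itself was not analysed here. RNA was read with QuantSeq, which takes a tag from the 3′ end of each polyadenylated transcript, so that a level is given in CPM, the usual count scaled to a common library total, with no division by gene length. The values are the authors' count totals, 1 for FLExDUX4 and 1 for WT, and the columns of single libraries match no sample label, so the spread between mice was not measured here. No p-value is given for this reason, and 1 mouse could set any difference described below.

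MAF proteins are basic leucine zipper factors. The large ones, such as MAF and MAFA, carry an activation domain and in mouse muscle drive Myh4, the myosin of the fastest fibers. The small ones, MAFF, MAFG and MAFK, lack that domain and act as partners of NRF and BACH proteins. SIX-family proteins such as SIX4 are homeodomain factors that act with EYA cofactors, which are also phosphatases, to hold the fast-fiber program and the myogenic genes.

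Runs of bases that members share with genes of their family are shown because they bear on whether tags of one gene could be counted for another. Compared were 16 pairs of family genes with at least 1 member (GENCODE M21), and some family genes named below, such as Six5, were in none of them. The longest exact run in common was 32 bases, shorter than the read length of 75 bases before trimming. Trimmed reads can be shorter and runs with mismatches were not searched, so this does not show that tags were kept apart. The longest run of Maf and Mafa is 21 coding bases (GRCm38, minus strand, chr8:115705823-115705843 and chr15:75746957-75746977). The longest run of Six2 and Six4 is 32 coding bases in the homeobox, of which the first 30 are given (minus strand, chr17:85687422-85687451 and chr12:73112378-73112407).
Maf and Mafa: tacaaggagaaatacgagaag
Six2 and Six4: gtcagcaactggttcaagaaccggcggcag

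The depth was 13110125 counts on genes in the FLExDUX4 total and 18367364 in the WT total. After TMM scaling, the FLExDUX4 level was divided by the WT level and given on the log2 scale, below called the ratio, with a 95% interval that covers counting error only. Of the 8 members, 7 passed the filter on low counts. The tissue label was checked against muscle markers: Acta1, Ckm, Des, Myh4 and Tnnt3 had summed levels of 93313 CPM in FLExDUX4 and 93346 CPM in WT. The study's methods name triceps for this experiment, while the labels name quadriceps, and the methods also give a younger age than the labels. The limb markers were too low to tell them apart, with 14 and 34 counts (FLExDUX4 and WT) for the forelimb gene Tbx5, 10 and 10 for the hindlimb gene Tbx4, and 0 and 1 for the hindlimb gene Pitx1.

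Of the 7 members compared, 6 had a lower level in the FLExDUX4 total than in the WT total. Among all 13396 genes compared, 6711 had a ratio below 0. The other genes of these families and cofactors that passed the filter, also 7, went mostly the other way under TMM. Of them 5 lay above 0 and 2 below, with a median of 0.37. All 14 together had a median of -0.16, with 6 above 0 and 8 below. The count for the members therefore describes the genes chosen, not their families. The median log2 ratio of the 7 members was -0.38, with a range from -1.01 for Eya3 to 0.17 for Mafg, beside a median of -0.001 over the 13396 genes compared. Lower by at least 0.5 were 3 of the 7 (Six2, Six4 and Eya3), where 15.7% of all genes compared were, and none of the 7 was higher by at least 0.5, where 15.7% of all genes were. Such differences are commoner among genes with few counts. Among the 7375 genes with at least 200 counts over both totals, 4.83% were lower and 5.49% higher by at least 0.5, and of the 6 members with that depth 2 were lower (Six4 and Eya3) and none higher. The counting interval lay below 0 for 4 of the 7 (Maf, Six4, Eya1 and Eya3), beside 20.6% of all genes, and above 0 for 1 (Mafg), beside 20.5%. These 5 are among the 6 members with at least 200 counts, and of all genes of that depth 21.5% lay below and 21.9% above 0. With totals scaled to spike-in RNAs, which moved every gene by -0.28, the interval lay below 0 for 6 of the 7 and above 0 for none, beside 47.1% and 7.59% of all genes.

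**Figure D1:**
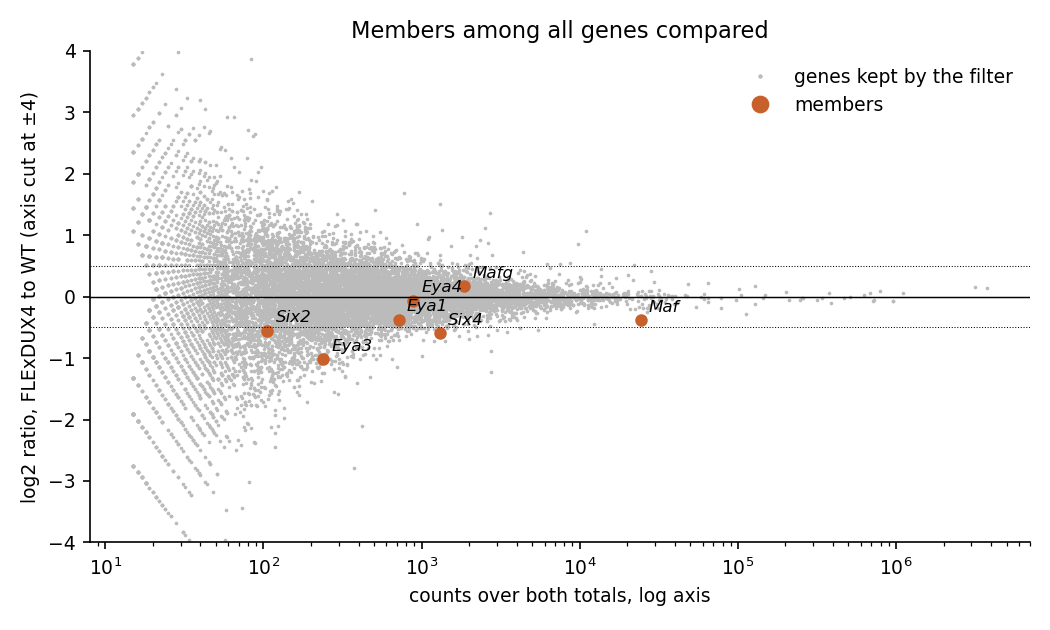
Log2 ratio of the FLExDUX4 to the WT total (vertical axis) against the counts over both totals (horizontal log axis) for the 13396 genes compared, with the 7 members in orange. Dotted lines mark ratios of 0.5 in either direction, and 109 genes lie beyond the cut of the axis at 4. Genes with few counts spread most. Maf, at the right, does not pass the dotted line, and of the 236 genes with at least 10000 counts 1 lies below Maf.

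Maf was the most abundant member. Maf (ENSMUSG00000055435, chr8:115682942-115707794, minus strand, protein-coding) had 8465 counts in FLExDUX4 and 15793 in WT. This was 652.4 CPM (interval 638.6 to 666.5) in FLExDUX4 and 851 CPM (interval 837.7 to 864.3) in WT, a log2 ratio of -0.38 (interval -0.42 to -0.35). With spike-in scaling the ratio was -0.66 (interval -0.70 to -0.62). Maf held rank 86 by mean CPM in this muscle. Of the 236 genes with at least 10000 counts over both totals, 1 had a lower ratio, Ddit4l (4186 and 8200 counts, -0.45, interval -0.51 to -0.40), which was named after its values were seen. This cut on counts was not planned. Among all 13396 genes compared, which spread more at few counts, the ratio of Maf was at percentile 19.8. Ddit4l encodes an inhibitor of mTORC1 signaling. Maf has 2 annotated coding transcripts that end at different 3′ ends, and the table gives their sum. An antisense gene annotated across Maf, Gm15655, had 0 counts in both totals.

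Mafa (ENSMUSG00000047591, chromosome 15), known best for insulin transcription in beta cells, had 0 counts in both totals, which allows up to 0.231 CPM in FLExDUX4 and 0.162 CPM in WT. The retinal factor Nrl had 0 and 5 counts.

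Maf is also expressed by macrophages, so macrophage markers are given beside it. All 8 markers were detected in both totals, with a sum of 101 CPM in FLExDUX4 and 96.7 CPM in WT and a median log2 ratio of -0.004. Of the 8, 2 were lower by at least 0.5 (Adgre1, -0.66, interval -1.44 to 0.04, and Cd68, -0.64, interval -1.44 to 0.07), and Cd163 was higher (0.92, interval 0.57 to 1.26). The most abundant were Lyz2 (-0.02) and Csf1r (0.01). The part of macrophages in the ratio of Maf was not tested. In bulk tissue, fewer cells of a type and less RNA per cell cannot be told apart.

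**Figure D2:**
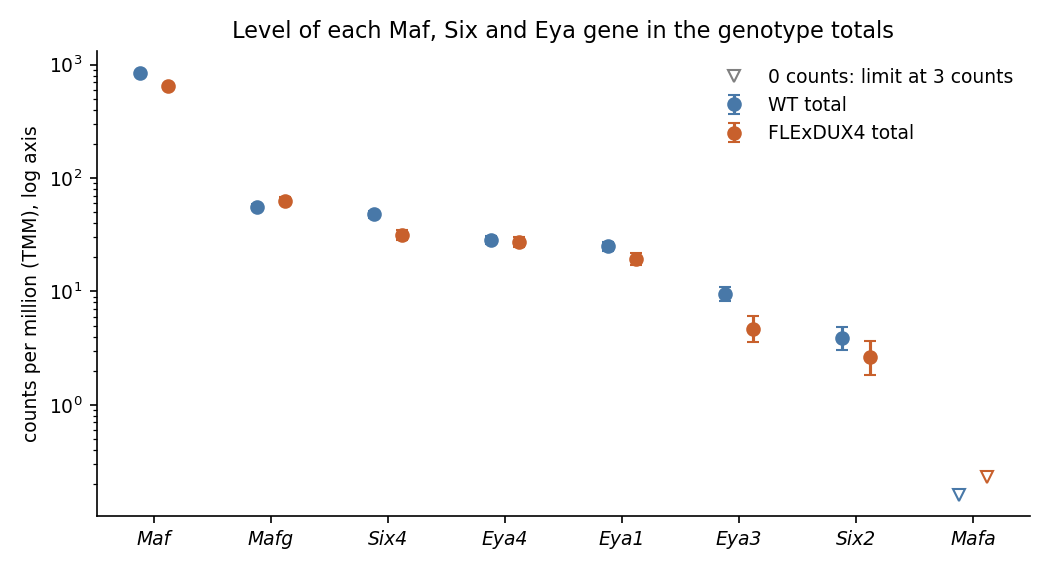
Level of each of the 8 genes in CPM (log axis) in the WT total (blue) and the FLExDUX4 total (orange), with 95% counting intervals; open triangles mark the limit that 0 counts allow for Mafa. Maf lies about an order of magnitude above the next gene, and under TMM Mafg is the gene whose FLExDUX4 point is the higher one, an order that spike-in scaling turns.

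Mafg, a small MAF gene, was the member with a ratio above 0 under TMM. Mafg (ENSMUSG00000051510, chr11:120625117-120633600, minus strand) had 819 counts in FLExDUX4 and 1039 in WT, or 63.1 and 56.0 CPM, a ratio of 0.17 (interval 0.04 to 0.31). With spike-in scaling, the ratio of Mafg was -0.10 (interval -0.24 to 0.03). The difference between Mafg and another member does not depend on the scaling. Since Mafg had the highest ratio of the 7, its differences from the others are above 0 by that choice, and they ranged from 0.24 against Eya4 to 1.19 against Eya3. The ratio of Maf minus that of Mafg was -0.56 (interval -0.69 to -0.42). Sirt7, a sirtuin gene annotated on the same strand and overlapping Mafg, had 109 and 112 counts and a ratio of 0.48 (interval 0.08 to 0.87), and tags where both genes are annotated could have been lost or assigned to either. Near Mafg, without overlap, Gm17586 on the opposite strand had 103 and 51 counts (1.52, interval 1.03 to 2.04) and Pycr1 on the same strand 25 and 40 (-0.15, interval -0.94 to 0.59).

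The other small MAF genes also had ratios above 0 under TMM. Maff had 61 and 34 counts (1.35, interval 0.73 to 2.01) and Mafk 192 and 213 counts (0.37, interval 0.08 to 0.65). With spike-in scaling they had 1.07 (interval 0.46 to 1.73) and 0.09 (interval -0.20 to 0.38), the latter not distinguishable from 0. Mafg was 76.4% (interval 73.7 to 78.9) of the small MAF tags in FLExDUX4 and 80.8% (interval 78.5 to 82.9) in WT, while the share of Maff was 5.69% (interval 4.38 to 7.25) and 2.64% (interval 1.84 to 3.68). Summed, the small MAF genes had 82.6 CPM in FLExDUX4 and 69.3 CPM in WT, a ratio of 0.25 (interval 0.14 to 0.37), which spike-in scaling turned to -0.02 (interval -0.14 to 0.10). Of the 6 partner genes of small MAF proteins, 4 were compared, and all 4 had ratios above 0 with TMM, with a median of 0.23. Bach1, a repressor of NRF2 target genes, had 375 and 348 counts and a ratio of 0.62 (interval 0.41 to 0.84), or 0.35 (interval 0.13 to 0.56) with spike-in scaling. Nfe2l1 (0.13, interval 0.06 to 0.20) and Nfe2l2 (0.23, interval 0.09 to 0.37), which encode NRF1 and NRF2, and Bach2 (0.22, interval -0.20 to 0.64) were closer to 0, and with spike-in scaling these 3 had ratios of -0.15, -0.04 and -0.05. Nfe2 had 0 counts in both totals, and Nfe2l3 had 1 and 3.

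Six4 and Six2 were the SIX-family members, and both had lower levels in the FLExDUX4 total. Six4 (ENSMUSG00000034460, chr12:73099609-73113456, minus strand) had 410 counts in FLExDUX4 and 889 in WT, or 31.6 and 47.9 CPM, a ratio of -0.60 (interval -0.77 to -0.43). Six2 (ENSMUSG00000024134, chr17:85684277-85688274, minus strand), known for holding kidney progenitors, had 34 and 72 counts, or 2.62 and 3.88 CPM. Its ratio of -0.56 (interval -1.20 to 0.04) was not distinguishable from 0 at this depth under TMM, and with spike-in scaling it was -0.83 (interval -1.48 to -0.23).

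Their ratios differed by 0.04 (Six2 minus Six4, interval -0.56 to 0.65), a difference that does not depend on the scaling. Among other genes of the family with few tags, Six5 had 26 and 33 counts (0.18, interval -0.63 to 0.96, and -0.10 with spike-in scaling). Six3 had 7 counts in FLExDUX4 and 0 in WT, and Six6 had 0 in both.

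Among the EYA genes, the ratios were spread more widely. Eya3 (ENSMUSG00000028886, chr4:132638987-132724765, plus strand), an EYA gene expressed in many tissues, had 61 counts in FLExDUX4 and 177 in WT, or 4.70 and 9.54 CPM, a ratio of -1.01 (interval -1.46 to -0.59). Eya1 (ENSMUSG00000025932, chr1:14168954-14310235, minus strand), the cofactor enriched in fast fibers, had 250 and 465 counts, or 19.3 and 25.1 CPM, a ratio of -0.38 (interval -0.61 to -0.15), or -0.65 (interval -0.88 to -0.43) with spike-in scaling. Eya4 (ENSMUSG00000010461, chr10:23102963-23350786, minus strand), known for its part in hearing and the heart, had 354 and 530 counts, or 27.3 and 28.6 CPM, and its ratio of -0.07 (interval -0.26 to 0.13) did not differ from 0 beyond counting error under TMM. With spike-in scaling it was -0.34 (interval -0.54 to -0.15).

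Within the EYA tags, the share of Eya3 was 8.68% (interval 6.70 to 11.0) of 703 in FLExDUX4 and 14.8% (interval 12.8 to 16.9) of 1200 in WT, so these intervals do not overlap. Eya4 was 50.4% (interval 46.6 to 54.1) and 44.2% (interval 41.3 to 47.0), and Eya1 was 35.6% (interval 32.0 to 39.2) and 38.8% (interval 36.0 to 41.6). The share of Eya2 went the other way from that of Eya3, with 5.41% (interval 3.85 to 7.34) in FLExDUX4 and 2.33% (interval 1.56 to 3.35) in WT. Its intervals do not overlap either, and shares do not depend on the scaling. Eya2 had 38 and 28 counts (0.95, interval 0.21 to 1.72), and with spike-in scaling its ratio of 0.67 (interval -0.06 to 1.44) was not distinguishable from 0. The ratio of Eya3 was 0.95 below that of Eya4 (difference -0.95, interval -1.41 to -0.49). This pair holds the lowest and the highest ratio of the EYA members, so the difference lies below 0 by that choice. Features annotated at these genes also had few counts. Gm37444, on the same strand within Eya1, had 0 and 31 counts, and Xkr8, on the opposite strand beside Eya3, had 4 and 41 counts (-2.69, interval -4.78 to -1.38).

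**Figure D3:**
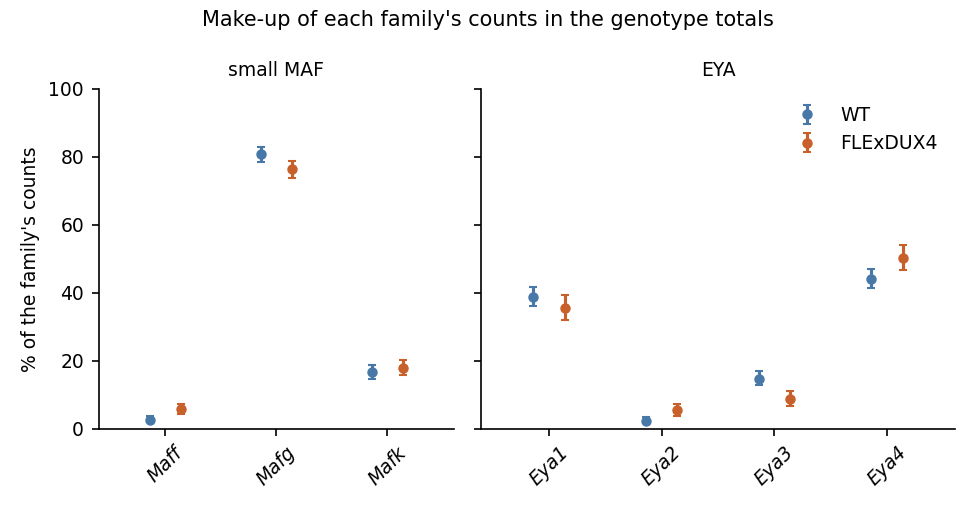
Share of each gene in the tags of its family (small MAF and EYA), in percent with 95% exact intervals, for WT (blue) and FLExDUX4 (orange). Maff is 2.64% of small MAF tags in WT and 5.69% in FLExDUX4, and Eya3 is 14.8% of EYA tags in WT and 8.68% in FLExDUX4.

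Other cofactors of SIX-family proteins had ratios on both sides of 0 under TMM. Dach1 had 65 and 150 counts (-0.68, interval -1.13 to -0.26), Dach2 149 and 160 (0.41, interval 0.08 to 0.74), and Sobp 591 and 1004 (-0.25, interval -0.40 to -0.10). With spike-in scaling, Dach1 had -0.96 (interval -1.41 to -0.54) and Sobp -0.52 (interval -0.67 to -0.38), while Dach2, with 0.14 (interval -0.19 to 0.47), was not distinguishable from 0. The DACH proteins are corepressors.

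**Figure D4:**
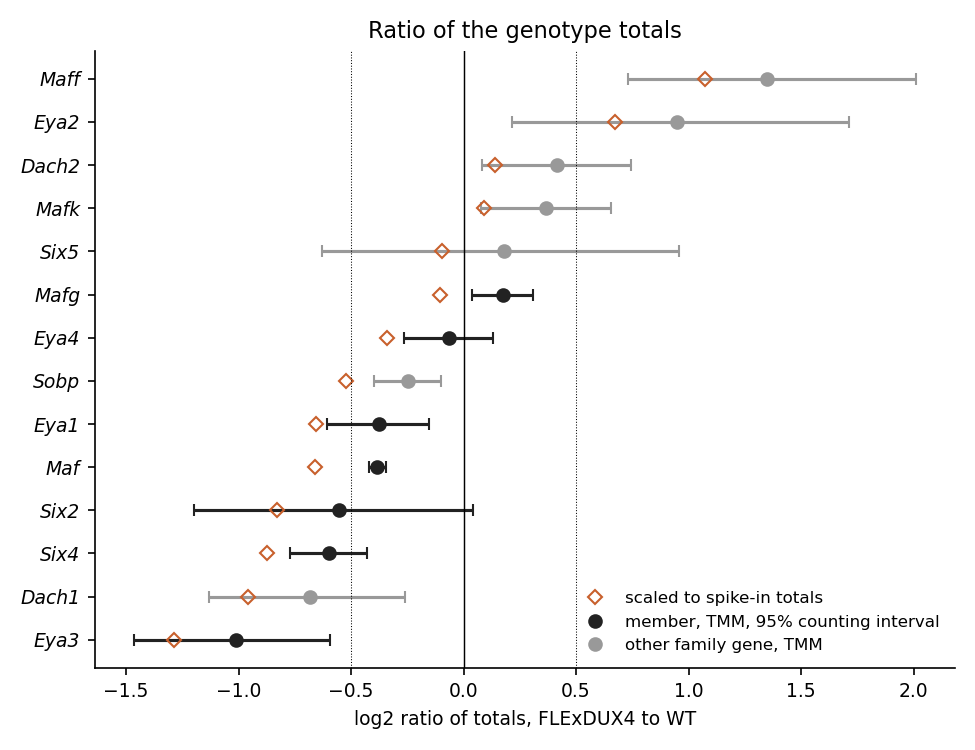
Log2 ratio of the FLExDUX4 to the WT total for the members (black) and other family genes (grey) with 95% counting intervals under TMM, and the same ratio scaled to spike-in totals (open diamonds); dotted lines mark 0.5. Spike-in scaling moves every gene to the left by 0.28, which takes Mafg from 0.17 to -0.10.

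The 8 genes had the same order of levels in each total, from the highest Maf, Mafg, Six4, Eya4, Eya1, Eya3, Six2 and Mafa. By counting error alone, each detected gene differed from the next. The closest were Eya4 and Eya1 in WT, 1.14-fold apart (interval 1.004 to 1.29). Maf was 10.3-fold (interval 9.62 to 11.1) above Mafg in FLExDUX4 and 15.2-fold (interval 14.3 to 16.2) in WT, and Six4 was 1.158-fold (interval 1.002 to 1.34) above Eya4 in FLExDUX4 and 1.68-fold (interval 1.505 to 1.87) in WT.

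Fast-fiber genes differed little between the totals under TMM. They were listed as genes of fast fibers, not as targets of these factors. All 17 listed were compared, with a median log2 ratio of -0.03 and a range from -0.19 (Myh1) to 0.12 (Actn3), and none passed 0.5 in either direction. At their depth the counting interval lay below 0 for 14 of the 17 and above 0 for 2, beside 20.6% and 20.5% of all genes at all depths, and with spike-in scaling their median was -0.31, beside -0.28 over all genes. Myh4, with 384762 and 575807 counts, had a ratio of -0.07 (interval -0.071 to -0.059), and Tnnt3 of -0.02 (interval -0.03 to -0.01). The 12 slow-fiber genes had a median of -0.07 and a range from -0.25 (Myl2) to 0.24 (Actn2), and none passed 0.5. Their interval lay below 0 for 5 of the 12 and above 0 for 2. The most abundant of them, Mybpc1 and Myl3, had ratios of 0.05 and -0.16.

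Of 10 genes listed as other regulators of fiber type, not all of them established as such in mouse, none was lower by at least 0.5. Higher by at least 0.5 was 1, Prdm1, with 22 and 6 counts (2.31, interval 1.04 to 3.98). Their median was -0.006. Tead1 had the lowest ratio (-0.22, interval -0.29 to -0.15), and the abundant Mef2c and Nfix had ratios of -0.12 and 0.01. Of 4 myogenic genes bound by SIX-family proteins, Myog was higher (50 and 32 counts, 1.15, interval 0.49 to 1.85), and Myf6 (-0.04), Myod1 (-0.02) and Myf5 (0.34, interval -0.54 to 1.21) were within counting error of 0.

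**Figure D5:**
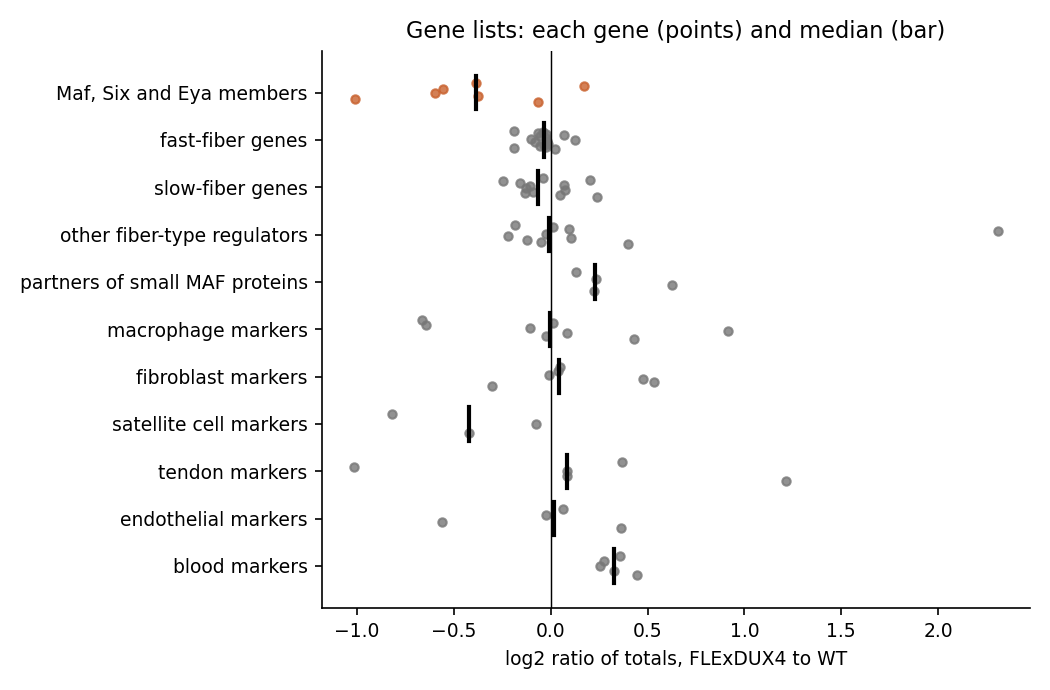
Log2 ratio of the FLExDUX4 to the WT total for the genes of each list that passed the filter (points) with the list's median (bar). The members have a median of -0.38, the fast-fiber genes lie between -0.19 and 0.12, and the blood markers lie above 0 under TMM (median 0.33) and near 0 with spike-in scaling (median 0.0503).

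Markers of other cells that muscle holds are given because Six2, Eya1 and Maf are expressed outside fibers as well. The 3 satellite cell markers compared of 4 were below 0 (median -0.42; Pax7, 35 and 89 counts, -0.82, interval -1.44 to -0.25; Chodl, -0.08), while Calcr, under the filter with 9 and 5 counts, was the fourth (1.30, interval -0.37 to 3.29). Without the filter the median was -0.26. The 4 markers together had 29.1 CPM in FLExDUX4 and 32.8 CPM in WT. The 6 fibroblast markers had a median of 0.04 (lowest Cd34, -0.30; highest Col1a1, 0.53; Dcn, 0.04) and sums of 1153 and 1043 CPM. The 5 tendon markers had a median of 0.09 (lowest Scx, -1.01; highest Mkx, 1.21; the abundant Fmod and Thbs4, 0.09 and 0.08) and sums of 158.1 and 150.1 CPM. The 4 endothelial markers had a median of 0.02 (lowest Kdr, -0.56; highest Tie1, 0.36; Pecam1, 0.06) and sums of 155.9 and 175.3 CPM. All 5 blood markers were above 0 (median 0.33; lowest Hba-a1, 0.25; highest Alas2, 0.45; Hbb-bs, 0.36), with sums of 1279 and 1020 CPM. No marker in these lists was at 0 in both totals, and their part in the ratios of the members was not tested.

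Promoter windows from RefSeq (GRCm38.p6, 250 bases before to 50 after a transcription start) were searched on both strands, since SIX-family proteins are known to bind the MEF3 element. Windows were at hand for 5 of the 8 members (7 windows). The element TCAGGTTTC was found in Six4 alone among these, and in 0.429% of all 32851 windows; its shorter form TCAGGTT, contained in it, is in 4.07%. Among the 14 fast-fiber genes of 17 with a window, none held either form. The MAF recognition core TGCTGAC was found in no member and in 1 fast-fiber gene, Atp2a1, which encodes the fast calcium pump (-0.02), against 4.67% of all windows. The matches are shown with the element in capitals, in the direction of the gene, where both appear as the reverse complement. The Six4 match starts 99 bases before the RefSeq start (chr12:73113325-73113354, minus strand) and lies in exonic UTR of a longer GENCODE transcript. The Atp2a1 match starts 163 bases before its start (chr7:126463218-126463247, minus strand), upstream of the gene. A match is a description of the letters only.
Six4: tggcctggggGAAACCTGAtcggccagatc
Atp2a1: tgttcctctctGTCAGCAgaaacctctctc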

How the data were processed

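Per the study's methods, the authors made QuantSeq FWD libraries, trimmed reads with Cutadapt 1.16 and aligned them with STAR 2.5.3a to GRCm38 joined to ERCC and SIRV spike-ins. The submitters' processing notes also name featureCounts 1.6.2. The deposited count totals per gene, added over the libraries of a genotype without normalization, were used. The table also holds 6 columns of single libraries, whose names match no sample label, a mean normalized count, and the authors' fold changes, standard errors and p-values; none of these was used.

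Spike-ins (99 features) were left out of gene totals. Totals were scaled by TMM (edgeR 4.0.16, R 4.3.3) over 13396 genes kept by filterByExpr, and FLExDUX4 was set against WT on the log2 scale after adding 0.5 to each count. Intervals are exact at 95% (Clopper-Pearson for ratios and shares, Poisson for levels; scipy 1.17.1, Python 3.11.15). Intervals for the difference of 2 ratios used the Poisson variances of the log counts. They cover counting error only, and tags carried no molecular identifiers. A total with 0 counts was given a limit of 3 counts. A call was an absolute log2 ratio of at least 0.5. The code was tested on simulated counts with 200 changed genes.

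Members and lists were chosen with earlier results of these data known. Named are all members and the other family and partner genes, and in each further list the genes with the highest and lowest ratio and those with the most counts. Genes beside a member, Ddit4l, Cd68, Calcr, Myf5 and genes in motif matches were named after their values were seen. Some genes of these families are not reported here and were left out of the lists. Aldoa, on 2 rows, was taken from the row with counts. Coordinates are from GENCODE M21 (GRCm38), printed where the start equals the deposited one.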

Additional observations from a re-analysis of the deposited data

How the results depend on the processing

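No paired analysis was possible because the columns of single libraries match no sample label, and for the same reason no replicate was left out. Scaling by RLE, a filter of at least 50 counts and a pseudocount of 2 moved no member's ratio out of its counting interval and RLE and the filter left 3 members lower by at least 0.5. With at least 50 counts, which left out Myf5 and Prdm1, the median of the myogenic genes turned from 0.16 to -0.0246 and that of other regulators went from -0.0062 to -0.0243. Spike-in totals moved every ratio by -0.28, so that Mafg turned to -0.10, the median of the MAF genes reported to -0.0058 and that of the partners of small MAF proteins to -0.048. Maf then had -0.66, as had the median of the members, Six4 -0.88, Eya1 -0.65 and Eya4 -0.34, and 5 members were lower by at least 0.5, beside 28.5% of all genes. The counting interval then lay above 0 for 0 members and below 0 for 6, a count added after seeing the data. List medians under spike-in totals were -0.31 for fast-fiber genes, -0.34 for slow-fiber genes, -0.28 for other regulators, -0.30 for muscle markers, -0.23 for fibroblast, -0.26 for endothelial, -0.28 for macrophage, -0.70 for satellite cell and 0.0503 for blood markers, and the medians of tendon markers and myogenic genes turned from 0.09 to -0.19 and from 0.16 to -0.12. At a log2 ratio of 1, 1 member was lower, beside 7.43% of all genes. Without a filter, the median of the SIX-family genes reported went from -0.555 to -0.1975, of satellite cell markers from -0.42 to -0.26, of the MAF genes reported from 0.27 to 0.16 and of muscle markers from -0.023 to -0.032. With upper quartile and gene totals, fast-fiber genes had -0.0499 and -0.0638 and muscle markers -0.039 and -0.053. Limiting the count to genes with at least 200 counts was chosen after seeing the data and gave 2 members lower. Counting depth limits genes with few tags, such as Six5, Eya2 and Six2.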
